A study of Mus musculus with 32 samples.

Results

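The genes described here are the aryl hydrocarbon receptor Ahr, its dimer partner Arnt, its repressor Ahrr, and 3 genes that the receptor is known to switch on, Cyp1a1, Cyp1b1 and Tiparp. They are 6 of the 32285 genes in a count table of whole mouse bladders, picked by symbol through their Ensembl identifiers, and all 6 had counts in every bladder. RNA was sequenced from the bladders of 32 female C57BL/6 mice in 6 groups. Young mice were 2 months old (n = 6), Middle-aged mice 10 months old (n = 5) and Untreated old mice 26 months old (n = 6). The other old mice, also 26 months old, had been gavaged on 3 consecutive days a month from the age of 21 months to 26 months with water (Water-treated old, n = 5), with a mixture of Phosal 50 PG, polyethylene glycol and ethanol (Vehicle-treated old, n = 4), or with dasatinib at 5 mg/kg/day and quercetin at 50 mg/kg/day in that mixture (D+Q-treated old, n = 6). Treated mice were rested for several days after the last gavage before the bladder was taken. Dasatinib, a kinase inhibitor, and quercetin, a plant flavonol, are given together as a senolytic to remove senescent cells, and quercetin is also a known ligand of the aryl hydrocarbon receptor. The comparisons ask whether the receptor and its targets differ with age, with gavage, or with D+Q.

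The aryl hydrocarbon receptor is a transcription factor of the bHLH-PAS family that waits in the cytoplasm with Hsp90 and other chaperones until a small molecule binds it. Ligands include dioxins, polycyclic aromatic hydrocarbons, flavonoids and products of tryptophan breakdown, some of which pass through the bladder in urine. The bound receptor enters the nucleus, pairs with Arnt and binds DNA at elements with the core GCGTG. Cyp1a1 and Cyp1b1 then oxidize many of the same ligands, and Ahrr competes with the receptor for Arnt and for DNA. Tiparp, which adds ADP-ribose to proteins, also dampens the receptor, so that several of the receptor's targets are its own brakes.

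The promoter windows of the 4 inducible genes are shown because this core is the letters through which the receptor and Arnt act. Each is the 250 bases before the RefSeq transcription start (GRCm38.p6, the mm10 build), written in the direction of the gene, with GCGTG, or CACGC where the core lies on the other strand, in capitals.
Ahrr (chr13:74292332-74292581, minus strand): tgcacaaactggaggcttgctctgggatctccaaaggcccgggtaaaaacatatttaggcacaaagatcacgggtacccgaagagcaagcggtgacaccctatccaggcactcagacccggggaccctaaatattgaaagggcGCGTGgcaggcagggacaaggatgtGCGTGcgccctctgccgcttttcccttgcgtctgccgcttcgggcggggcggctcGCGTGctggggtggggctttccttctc
Cyp1a1 (chr9:57697363-57697612, plus strand): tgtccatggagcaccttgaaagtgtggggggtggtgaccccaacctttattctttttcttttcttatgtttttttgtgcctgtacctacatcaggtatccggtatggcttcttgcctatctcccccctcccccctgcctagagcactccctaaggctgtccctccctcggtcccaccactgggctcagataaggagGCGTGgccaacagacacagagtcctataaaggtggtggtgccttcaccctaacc
Cyp1b1 (chr17:79715062-79715311, minus strand): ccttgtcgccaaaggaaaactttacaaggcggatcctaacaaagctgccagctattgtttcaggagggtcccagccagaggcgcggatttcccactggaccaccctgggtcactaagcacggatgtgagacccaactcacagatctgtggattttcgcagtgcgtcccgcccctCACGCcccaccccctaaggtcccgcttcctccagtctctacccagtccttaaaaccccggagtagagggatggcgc
Tiparp (chr3:65528197-65528446, plus strand): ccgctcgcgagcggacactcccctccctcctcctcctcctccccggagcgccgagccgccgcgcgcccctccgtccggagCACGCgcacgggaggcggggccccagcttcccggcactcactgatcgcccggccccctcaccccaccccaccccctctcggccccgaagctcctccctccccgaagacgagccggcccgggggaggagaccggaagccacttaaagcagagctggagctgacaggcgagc
The Ahrr window held the core 3 times, with first bases at -107, -82 and -27 from the start, and the last of these lay in the longer motif TNGCGTG, where N is any base. Cyp1a1 held it 1 time, at -54, Cyp1b1 1 time on the other strand at -76, and Tiparp 1 time on the other strand at -170. Arnt also held 1 copy, with its first base at -29 from the start. Over both strands, 28.2% of the 32851 windows of the same length held GCGTG and 4.1% held TNGCGTG, so a single core is a common sequence. Sequence farther than 250 bases from the start was not searched, and binding of the receptor to any of these copies was not measured. The Cyp1a1 window lies inside the GENCODE gene, whose longest model starts upstream.

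On mm10 the genes lie at chr12:35497974-35535038 (Ahr, ENSMUSG00000019256), chr3:95434388-95497240 (Arnt, ENSMUSG00000015522), chr13:74211118-74292331 (Ahrr, ENSMUSG00000021575), chr9:57687928-57703824 (Cyp1a1, ENSMUSG00000032315), chr17:79701537-79715061 (Cyp1b1, ENSMUSG00000024087) and chr3:65528410-65555518 (Tiparp, ENSMUSG00000034640). Counts are reads over the exons of each gene. Ahr overlaps Gm48236 and Tiparp overlaps 4931440P22Rik on the opposite strand, and Arnt overlaps Gm42672 on its own strand, so their reads could be shared. Counted reads per bladder ranged from 15088372 (Young replicate 3) to 52650259 (Untreated old replicate 6), with a median of 34074788. Levels are given as CPM, counts scaled to a common library size with TMM factors (trimmed mean of M-values, which correct for differences in library makeup), or, between genes, as TPM, which also divides by exon length. All 10 urothelial and all 8 smooth muscle markers had counts in every bladder. The summed level of 7 fibroblast markers was 15850 to 29340 CPM in Young bladders against 9555 to 13040 CPM in the other 5 groups. The summed level of 6 B and plasma cell markers was 2.40 to 5.71 CPM in Young bladders, where 4 of the 6 had counts in every bladder, and 179 to 878 CPM in Untreated old bladders. In whole-bladder RNA, fewer cells of a type and less RNA per cell cannot be told apart, and the part of these markers in the age results below was not tested.

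Arnt was present at a steady level, Ahr varied somewhat more than most genes of like level, and the 4 inducible genes varied widely between bladders of the same group. By length-scaled level, Cyp1b1 was highest with a median of 62.2 TPM over the 32 bladders, followed by Arnt at 43.1 TPM, Tiparp at 39.5 TPM, Ahr at 37.9 TPM and Cyp1a1 at 36.7 TPM, and Ahrr was lowest at 7.11 TPM. The fewest reads behind any value were 110, for Cyp1a1 in Young replicate 3. The highest bladder exceeded the lowest by 1.25-fold for Arnt, 1.54-fold for Ahr, 3.06-fold for Cyp1b1, 3.11-fold for Ahrr, 3.30-fold for Tiparp and 18.0-fold for Cyp1a1. The SD within groups, on the log2(CPM + 1) scale, was 0.07 for Arnt and 0.18 for Ahr, against a median of 0.14 over the 18093 genes kept across the 6 groups. It was 0.38 for Ahrr, 0.44 for Cyp1b1, 0.53 for Tiparp and 0.80 for Cyp1a1. Among genes within 1 log2 unit of the same mean level, 97.7% had a smaller SD than Ahrr, 99.6% than Tiparp, 99.7% than Cyp1b1 and 99.8% than Cyp1a1, against 20.6% for Arnt and 89.5% for Ahr. Each p-value below compares groups against this spread between bladders. Neighbouring groups in the order of mean CPM had overlapping ranges for every one of the 6 genes.

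**Figure D1:**
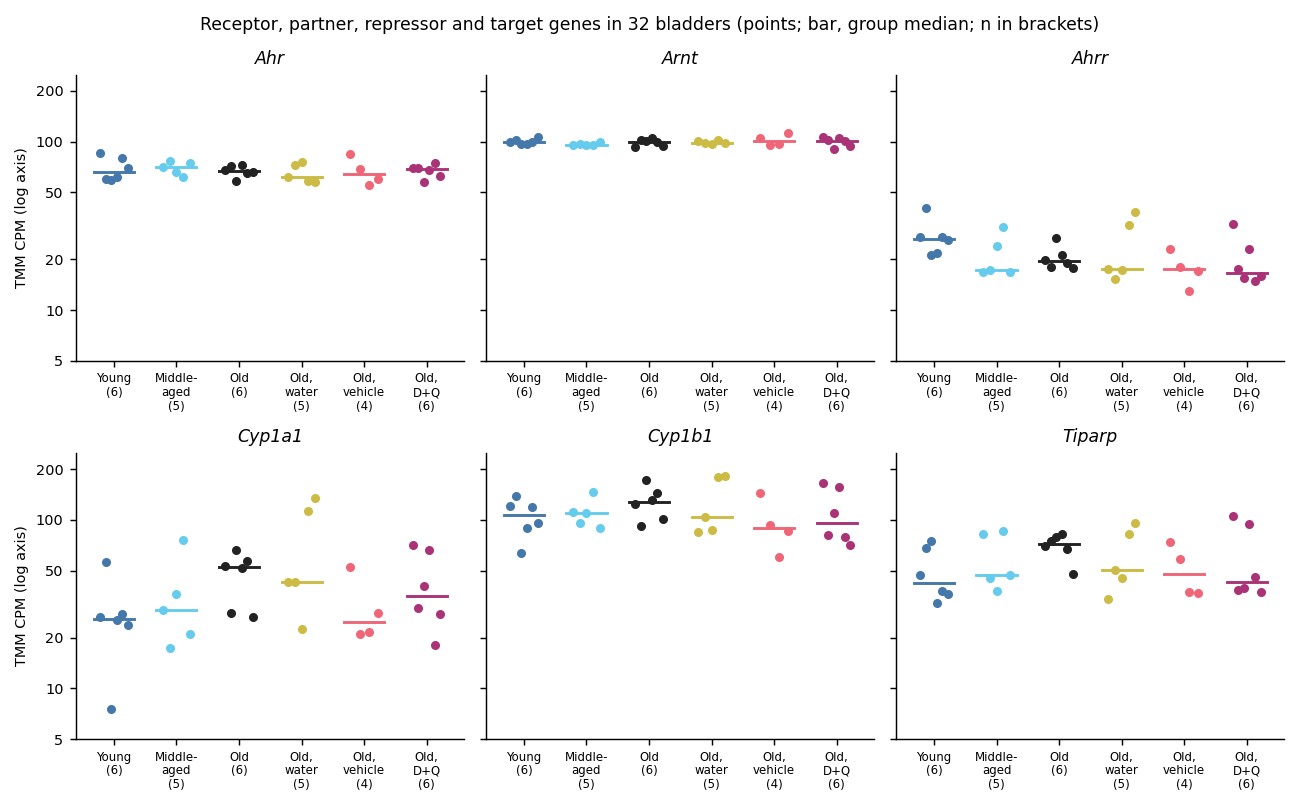
TMM CPM on a log axis of Ahr, Arnt, Ahrr, Cyp1a1, Cyp1b1 and Tiparp in each of the 32 bladders, by group (points, bladders; bars, group medians; n in brackets). Arnt stays between 90.1 and 112.8 CPM in every bladder, while Cyp1a1 spans 7.50 to 134.8 CPM and its groups overlap.

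Ahr, the ligand-binding receptor, stood at 58.8, 65.6 and 85.7 CPM in the lowest, median and highest Young bladder and at 58.0, 66.9 and 72.3 CPM in Untreated old bladders. The 5 Middle-aged bladders had 70.5, 76.2, 65.9, 61.9 and 74.8 CPM (replicates 1 to 5). The ranges overlapped, with the highest of these 17 bladders in the Young group and the lowest in the Untreated old group. In the gavaged groups Ahr was 61.6, 72.7, 75.3, 58.0 and 57.4 CPM in Water-treated old bladders (replicates 1 to 5), 83.9, 68.4, 55.6 and 59.9 CPM in Vehicle-treated old bladders (replicates 1 to 4), and 57.9, 68.7 and 75.1 CPM in the lowest, median and highest D+Q-treated old bladder. No group mean lay outside 65.0 to 69.8 CPM.

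Arnt, the partner that Ahr shares with the hypoxia factors, was the steadiest of the 6 genes. Its group means ran from 96.6 CPM ± 1.58 (SD, n = 5) in Middle-aged to 103 CPM ± 7.89 (SD, n = 4) in Vehicle-treated old bladders. The single lowest bladder was D+Q-treated old (90.1 CPM) and the single highest was Vehicle-treated old (112.8 CPM).

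Ahrr, the repressor that competes with Ahr for Arnt, was 21.1, 26.5 and 40.1 CPM in the lowest, median and highest Young bladder and 17.7, 19.5 and 26.7 CPM in Untreated old bladders. The 5 Middle-aged bladders had 16.8, 17.2, 24.1, 31.2 and 16.8 CPM (replicates 1 to 5). All but 1 Untreated old bladder, replicate 3, lay below the Young median, but the groups overlapped. Among gavaged mice, Ahrr was 17.5, 15.4, 17.4, 32.1 and 38.1 CPM in Water-treated old bladders (replicates 1 to 5), 23.1, 17.9, 12.9 and 17.0 CPM in Vehicle-treated old bladders (replicates 1 to 4), and 14.8, 16.7 and 32.5 CPM in the lowest, median and highest D+Q-treated old bladder. Water-treated replicates 4 and 5 stood well above the other Water-treated bladders.

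Cyp1a1, the monooxygenase used most often as a readout of receptor activity, was 7.50, 25.9 and 56.5 CPM in the lowest, median and highest Young bladder, and 26.6, 52.4 and 66.5 CPM in Untreated old bladders. The 5 Middle-aged bladders had 29.0, 17.3, 36.3, 76.4 and 21.1 CPM (replicates 1 to 5). The Untreated old median was higher than the Middle-aged median of 29.0 CPM, but Middle-aged replicate 4 exceeded every Untreated old bladder. Water-treated old bladders had 42.9, 42.6, 22.4, 113 and 135 CPM (replicates 1 to 5), the last of these being the highest of the series. Vehicle-treated old bladders had 52.8, 20.9, 21.5 and 28.0 CPM (replicates 1 to 4), and D+Q-treated old bladders had 18.0, 35.1 and 71.3 CPM as lowest, median and highest. The lowest bladder of each gavaged group lay at 18.0 to 22.4 CPM and the highest at 52.8 to 135 CPM.

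Cyp1b1, which like Cyp1a1 oxidizes polycyclic hydrocarbons and estrogens, was 64.0, 107 and 138 CPM in the lowest, median and highest Young bladder and 92.1, 127 and 173 CPM in Untreated old bladders. Middle-aged bladders had 110.8, 96.3, 110.5, 145.7 and 89.3 CPM (replicates 1 to 5). All of these overlapped. Water-treated old bladders had 84.4, 104.5, 87.4, 180.2 and 183.3 CPM (replicates 1 to 5), Vehicle-treated old bladders 145.3, 93.4, 60.0 and 85.3 CPM (replicates 1 to 4), and D+Q-treated old bladders 70.5, 95.7 and 165 CPM as lowest, median and highest. The 2 highest bladders of the series for Cyp1b1 were the same as for Cyp1a1, Water-treated replicates 5 and 4.

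Tiparp, the ADP-ribosylating brake on Ahr, was 32.1, 42.4 and 75.0 CPM in the lowest, median and highest Young bladder and 48.0, 72.0 and 82.9 CPM in Untreated old bladders. Middle-aged bladders had 82.5, 45.5, 37.7, 85.8 and 46.8 CPM (replicates 1 to 5). Of the 6 Untreated old bladders 5 lay above the Young median by more than 20 CPM, but Young replicates 2 and 3 reached the same levels. Water-treated old bladders had 33.8, 50.1, 45.0, 81.9 and 96.4 CPM (replicates 1 to 5), Vehicle-treated old bladders 74.3, 58.2, 37.1 and 37.0 CPM (replicates 1 to 4), and D+Q-treated old bladders 37.3, 42.7 and 106 CPM as lowest, median and highest. With D+Q, replicates 1 and 4 stood at 106 and 94.6 CPM and the other 4 bladders at 37.3 to 46.1 CPM.

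With age, none of the 6 genes changed by the test across all genes (edgeR quasi-likelihood fit, Benjamini-Hochberg adjusted p under 0.05). From Young to Middle-aged 0 of 6 genes were called, beside 10.8% of 16754 genes tested. From Middle-aged to Untreated old the count was 0 of 6 beside 24.0% of 17156 genes, and from Young to Untreated old 0 of 6 beside 25.1% of 16873 genes. At an unadjusted p under 0.05 there were 0, 0 and 2 genes in these comparisons, the 2 being Ahrr and Tiparp. Of all genes tested, 4564, 6144 and 6125 were under that threshold, so 2 of 6 lies near the background. DESeq2 called 0, 0 and 2 members, beside 2672 of 15769, 4492 of 17135 and 4852 of 16850 genes, so its 2 of 6 also lies near the background. With limma none of the 6 was called, beside 1398 of 16105, 3846 of 16272 and 3726 of 16347 genes.

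Between Young and Untreated old bladders the inducible genes gave the largest estimates, in opposite directions. The Ahrr mean was 27.2 CPM in Young and 20.4 CPM in Untreated old bladders, a log2 fold change of -0.42 (SE 0.15, adjusted p = 0.0517). Tiparp had means of 49.4 CPM and 70.1 CPM, a log2 fold change of 0.51 (SE 0.20, adjusted p = 0.0867). Cyp1a1 had means of 27.8 CPM and 47.1 CPM, a log2 fold change of 0.74 (SE 0.35, adjusted p = 0.145), and Cyp1b1 104 CPM and 127 CPM, a log2 fold change of 0.28 (SE 0.18, adjusted p = 0.287). These values miss the threshold, and the 95% intervals allow an old level of 0.600 to 0.931 times the Young level for Ahrr, 1.05 to 1.93 times for Tiparp, 0.991 to 2.82 times for Cyp1a1 and 0.929 to 1.59 times for Cyp1b1. The calls for Ahrr and Tiparp depended on the tool, since DESeq2 gave adjusted p of 0.0237 for Ahrr and 0.0432 for Tiparp. They also depended on single bladders in the edgeR fit. Ahrr passed without Young replicate 3 (adjusted p = 0.0313), Young replicate 4 (0.0341) or Untreated old replicate 3 (0.022). Tiparp passed without Young replicate 2 (0.0388), Young replicate 3 (0.0235) or Untreated old replicate 6 (0.049), and Cyp1a1 without Young replicate 2, at a log2 fold change of 1.08 (0.0242). Other bladders moved the estimates the opposite way. Ahrr was -0.27 without Young replicate 2 (adjusted p = 0.0916), Tiparp 0.41 without Young replicate 4 (adjusted p = 0.147) and Cyp1a1 0.56 without Young replicate 3 (adjusted p = 0.187). For the receptor itself the interval of the same difference was 0.839 to 1.11 times, and for Arnt 0.931 to 1.05 times.

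The steps within that span were smaller. From Young to Middle-aged the log2 fold change was -0.36 for Ahrr (SE 0.19, adjusted p = 0.252), 0.36 for Cyp1a1 (SE 0.42, adjusted p = 0.626), 0.09 for Cyp1b1 and 0.29 for Tiparp. From Middle-aged to Untreated old it was -0.06 for Ahrr, 0.38 for Cyp1a1 (SE 0.36, adjusted p = 0.491), 0.20 for Cyp1b1 and 0.23 for Tiparp. Without Middle-aged replicate 4 the differences from Young became -0.11 for Cyp1a1 and -0.03 for Cyp1b1. In these 3 age comparisons the groups overlapped for all 6 genes, whereas 6.97%, 14.6% and 12.7% of the genes tested had groups that did not overlap.

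D+Q moved none of the 6 genes past the test, whichever old group it was set against. Against Untreated old bladders 0 of 6 genes were called beside 0.0% of 17037 genes (edgeR, with 0 members and 2200 genes at an unadjusted p under 0.05, and 185 genes called by DESeq2). Against Vehicle-treated old bladders the count was 0 of 6 beside 0.0% of 17267 genes (722 at an unadjusted p under 0.05, 11 by DESeq2), and against Water-treated old bladders 0 of 6 beside 0.0% of 17161 genes (1342 at an unadjusted p under 0.05, 69 by DESeq2). Against the mean of both gavaged control groups it was 0 of 6 beside 0.0113% of 17630 genes. Over the 6 treatment comparisons, all 36 tests of members gave an unadjusted p of 0.05 or more with edgeR, DESeq2 and limma. A 0.0% background means that these comparisons called nothing anywhere in the edgeR fit, so the members' count says nothing particular about them.

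The estimates for D+Q depended on the control group. Cyp1a1 means were 42.3 CPM with D+Q, 47.1 CPM in Untreated old, 30.8 CPM with vehicle and 71.1 CPM with water. The log2 fold change of Cyp1a1 with D+Q was therefore -0.15 against Untreated old (SE 0.33), 0.45 against vehicle (SE 0.40) and -0.76 against water (SE 0.46), with adjusted p of 0.861, 0.994 and 0.717. Its 95% intervals allow a D+Q level of 0.548 to 1.47 times Untreated old, 0.745 to 2.52 times vehicle and 0.296 to 1.18 times water. Set against both gavaged control groups together, the log2 fold change of Cyp1a1 was -0.16 (SE 0.40), with an interval of 0.500 to 1.61 times.

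The other targets varied less between bladders and had narrower intervals than Cyp1a1. Cyp1b1 with D+Q differed by -0.21 from Untreated old (95% interval -0.69 to 0.28), 0.20 from vehicle (-0.44 to 0.85) and -0.22 from water (-0.82 to 0.39), all on the log2 scale. Tiparp differed by -0.22, 0.22 and -0.04 in the same order, with intervals of 0.573 to 1.29, 0.678 to 2.00 and 0.580 to 1.64 times, and Ahrr by -0.04 (-0.44 to 0.36), 0.16 (-0.36 to 0.68) and -0.29 (-0.88 to 0.30). These comparisons share the 6 D+Q-treated bladders and are not independent. Ahr and Arnt gave narrower bounds. With D+Q, Ahr lay between 0.912 and 1.11 times Untreated old and between 0.848 and 1.18 times vehicle, and Arnt between 0.94 and 1.08 times Untreated old and between 0.877 and 1.07 times vehicle.

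The gavaged control groups were also set against Untreated old bladders. Vehicle-treated against Untreated old bladders called 0 of 6 genes beside 0.0% of 17440 genes (1464 at an unadjusted p under 0.05, 132 by DESeq2). Its 4 inducible genes had negative estimates, -0.61 for Cyp1a1 (SE 0.33), -0.44 for Tiparp (SE 0.21), -0.40 for Cyp1b1 (SE 0.24) and -0.20 for Ahrr (SE 0.16) on the log2 scale, with adjusted p from 0.606 to 0.723. Water-treated against Untreated old bladders called 0 of 6 beside 1.0% of 17250 genes. There Cyp1a1 had a log2 fold change of 0.60 (SE 0.42, adjusted p = 0.513, 95% interval -0.31 to 1.52), Ahrr 0.24 and Cyp1b1 0.01, with Tiparp at -0.18. These 2 comparisons and that of D+Q share the 6 Untreated old bladders. In all 6 treatment comparisons the groups overlapped for all 6 genes. The share of genes tested whose groups did not overlap was 0.599%, 1.05%, 1.25% and 0.278% for D+Q against Untreated old, vehicle, water and the mean of both, 2.21% for vehicle and 2.87% for water against Untreated old.

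**Figure D2:**
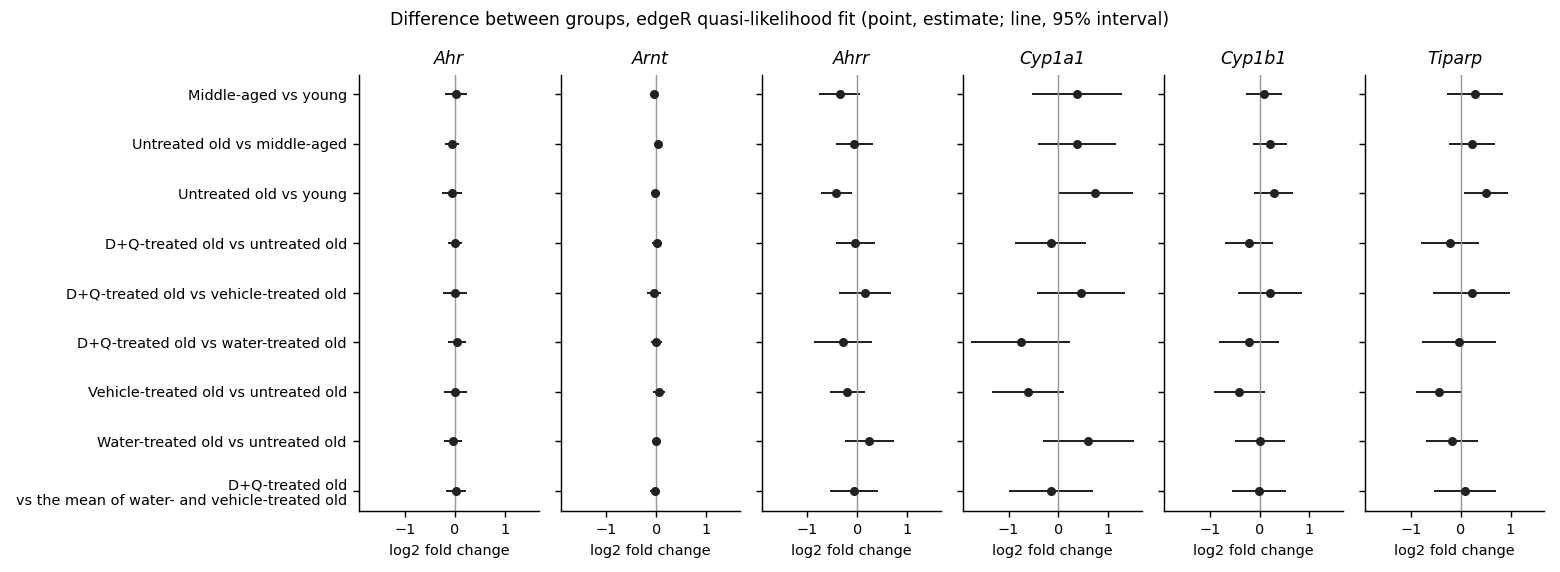
Log2 fold change of each of the 6 genes (columns) in the 9 comparisons (rows), from edgeR quasi-likelihood fits (points, estimates; lines, 95% intervals; the vertical line marks no difference). Intervals are narrow for Ahr and Arnt and widest for Cyp1a1, and the only ones clear of 0 are those of Ahrr and Tiparp between Untreated old and Young.

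The wide spread of the targets was shared between them. Within groups, over the 32 bladders and on the log2(CPM + 1) scale with group means removed, Pearson's r was 0.90 for Cyp1a1 with Cyp1b1 (Spearman's rho 0.87, and r = 0.89 without the 2 bladders farthest from the median), 0.87 for Ahrr with Cyp1b1 (rho 0.84, 0.84 without 2), and 0.86 for Ahrr with Cyp1a1 (rho 0.82, 0.84 without 2). These 3 pairs had a positive r in all 6 groups, the lowest being 0.76, from 4 to 6 bladders a group. Tiparp followed less closely, with an r of 0.69 with Ahrr, 0.67 with Cyp1b1 and 0.53 with Cyp1a1. In each of the 6 groups a single bladder had the highest Cyp1a1, Cyp1b1 and Ahrr at once, and in 4 of the groups the same bladder also had the highest Tiparp. It was replicate 2 of the Young, 4 of the Middle-aged, 3 of the Untreated old, 5 of the Water-treated, 1 of the Vehicle-treated and 1 of the D+Q-treated bladders. Over all groups the receptor gave values near 0 or below, with an r of -0.21 for Ahr with Cyp1a1, 0.03 with Cyp1b1, -0.16 with Ahrr and -0.04 with Tiparp. Its r differed in sign between single groups, from 4 to 6 bladders each. It ran from -0.974 to 0.803 with Cyp1a1, -0.925 to 0.969 with Cyp1b1, -0.933 to 0.95 with Ahrr and -0.577 to 0.967 with Tiparp. Water-treated replicates 4 and 5, highest in both enzymes, had 58.0 and 57.4 CPM of Ahr. Vehicle-treated replicate 1, highest of its group in all 4 targets, was also its highest in Ahr at 83.9 CPM.

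Values from one bladder share its library, so such correlations describe these libraries and are given without a p-value. The within-group r with the total counts of the library was 0.31 for Cyp1a1, 0.33 for Cyp1b1, 0.31 for Ahrr and 0.13 for Tiparp. With the summed urothelial markers it was -0.24, -0.38, -0.29 and -0.35 in the same order, and with the summed smooth muscle markers 0.26, 0.20, 0.31 and 0.22. With fibroblast markers it was 0.21, 0.23, 0.28 and 0.25. For none of the 9 marker lists was r with these 4 genes farther from 0 than -0.38, against at least 0.53 between the targets, and the part of cell makeup in the shared spread was not tested.

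**Figure D3:**
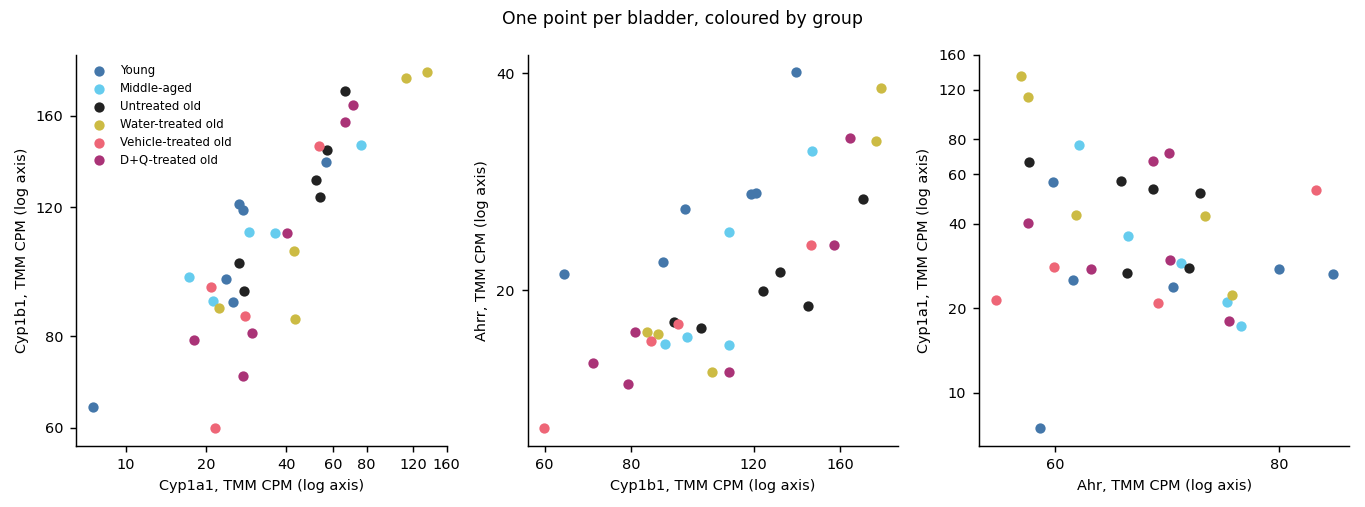
CPM of pairs of genes on log axes, 1 point per bladder, coloured by group: Cyp1b1 against Cyp1a1, Ahrr against Cyp1b1, and Cyp1a1 against Ahr. The first 2 pairs rise together (within-group r of 0.90 and 0.87, 32 bladders), with the Young points above the rest in the second, and Cyp1a1 shows no such rise with Ahr (r of -0.21).

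Ahrr and the enzymes moved together within groups, yet Young bladders had more Ahrr for the same Cyp1b1. The ratio of Ahrr CPM to Cyp1b1 CPM, does not depend on how a library is scaled. It was chosen after the values were seen, and the p-values below do not account for that choice. Its log2 was -2.15, -1.95 and -1.60 in the lowest, median and highest Young bladder, and -2.92, -2.63 and -2.35 in Untreated old bladders, so the groups did not overlap. The 5 Middle-aged bladders lay between -2.72 and -2.20, also clear of the Young. Among single genes tested, 12.7% did not overlap between Untreated old and Young and 6.97% between Middle-aged and Young. The share of gene pairs whose ratio does so was not computed. Means in the gavaged old groups were -2.42 with water, -2.395 with vehicle and -2.45 with D+Q, near the Middle-aged mean of -2.41. The highest D+Q-treated bladder, at -2.155, lay just below the lowest Young one. The difference of means was -0.69 for Untreated old against Young (two-sided exact permutation test, p = 0.00217, adjusted p = 0.0173 over 16 ratio tests) and -0.48 for Middle-aged against Young (exact p = 0.00433, adjusted p = 0.0231). From Middle-aged to Untreated old it was -0.21 (exact p = 0.117, adjusted p = 0.267). Leaving out each bladder in turn kept the first at -0.75 to -0.63 and the second at -0.53 to -0.40, with exact p of at most 0.00433 and 0.00952. Groups that do not overlap always give the smallest exact p that their sizes allow. The p-values with 1 bladder left out therefore followed from the lack of overlap and add nothing to it.

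The ratio to Cyp1a1 gave the same order with more spread. Its log2 mean was 0.16 ± 0.69 (SD, n = 6) in Young, -0.60 ± 0.49 (SD, n = 5) in Middle-aged and -1.13 ± 0.42 (SD, n = 6) in Untreated old bladders. Untreated old and Young did not overlap (difference -1.29, exact permutation p = 0.00217, adjusted p = 0.0173), and Middle-aged against Young missed the threshold once adjusted (difference -0.76, exact p = 0.0433, adjusted p = 0.173). Among the old groups neither ratio differed past the test. For D+Q against vehicle the difference in log2 Ahrr over Cyp1b1 was -0.06 (exact p = 0.705), and against Untreated old 0.17 (exact p = 0.242). The summed fibroblast markers also separated Young bladders (15850 to 29340 CPM) from Middle-aged (10400 to 13040 CPM) and Untreated old ones (9912 to 11350 CPM), and their part in the ratio was not tested.

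**Figure D4:**
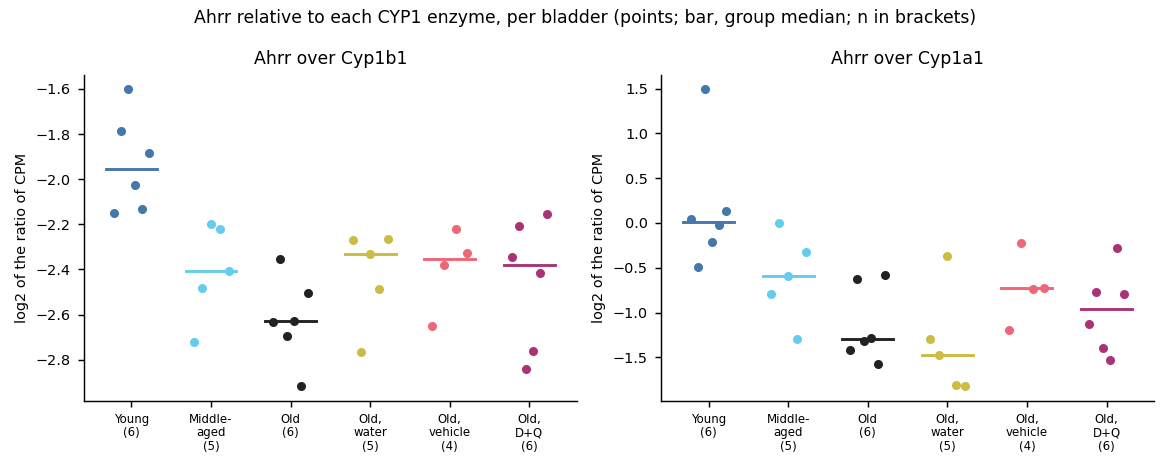
Log2 of the ratio of Ahrr CPM to Cyp1b1 CPM (left) and to Cyp1a1 CPM (right) per bladder, by group (points, bladders; bars, group medians; n in brackets). For Cyp1b1 the Young bladders (-2.15 to -1.60) lie above all Untreated old bladders (-2.92 to -2.35), and the 4 old groups overlap.

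Outside the 6 genes, likeness was measured as Pearson's r over the 32 bladders on log2(CPM + 1), with the 3 most alike genes named for every member but Arnt. For Cyp1a1 these were Cyp1b1 (r = 0.86), Nrg1, a growth factor of the EGF family (0.82), and C77080 (0.75). For Cyp1b1 they were Cyp1a1, Exoc3, a subunit of the exocyst (0.81), and Ahrr (0.74). For Ahrr they were Exoc3 (0.89), Tnrc18 (0.83) and Phldb2 (0.81). Exoc3 (chr13:74169488-74208732, minus strand) is the neighbour of Ahrr on the same strand, starting 2385 bases beyond the 3′ end of Ahrr. For Tiparp the closest were Ajuba (0.85), Thbs1, which encodes the matrix protein thrombospondin (0.82), and Nedd9 (0.82). Ahr was closest to B130024G19Rik (0.80), Zfp266 (0.79) and Calcrl (0.78). The bladders are the same in every pair, so these values share library and scaling.

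Further genes of the receptor's xenobiotic battery rose with age although the 6 members were not called. Of 10 listed genes, which include the transcription factor Nfe2l2, 9 were tested, since Cyp1a2, the liver member of the CYP1 family, had at most 5 reads in any bladder. Nfe2l2, named after its values were seen, was not called. Its log2 fold change in edgeR was 0.19 from Young to Middle-aged (adjusted p = 0.087) and 0.18 from Young to Untreated old (adjusted p = 0.0509). From Young to Untreated old 5 rose and 0 fell, beside 12.6% of all genes called higher and 12.4% called lower, with a median log2 fold change of 0.44 over the 9 against -0.0021 over all genes. From Young to Middle-aged 4 rose and 0 fell (background 4.96% and 5.85%), with a median of 0.43. From Middle-aged to Untreated old 2 rose and 1 fell (background 13.0% and 11.0%), with a median of -0.06. The list was chosen with earlier results of these data known, so its direction is described and not tested. The part of the receptor in these rises was not tested.

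Aldh3a1, an aldehyde dehydrogenase of barrier epithelia, was 84.4, 117 and 202 CPM in the lowest, median and highest Young bladder and 277, 302 and 358 CPM in Untreated old bladders. It rose by a log2 fold change of 1.30 (SE 0.20, adjusted p = 0.000372), of which 0.99 was reached by middle age (SE 0.21, adjusted p = 0.0132). The later step of 0.31 (adjusted p = 0.0417) lost its call without any one of 8 of the 11 bladders, with adjusted p up to 0.109. Ugt1a7c, a glucuronosyltransferase that conjugates xenobiotics, rose by 0.66 from Young to Untreated old (SE 0.11, adjusted p = 0.000719) and by 0.72 to middle age (SE 0.12, adjusted p = 0.00361), its bladders lying at 52.5 to 86.4 CPM when Young and 101 to 124 CPM when old. Ugt1a6a, of the same locus, rose by 0.51 to middle age (SE 0.10, adjusted p = 0.00823) and by 0.44 from Young to Untreated old (SE 0.11, adjusted p = 0.00891). Gsta2, a glutathione transferase, rose by 0.69 from Young to Untreated old (SE 0.15, adjusted p = 0.00435) and by 0.28 from Middle-aged (SE 0.07, adjusted p = 0.0122), the latter lost with all 6 groups in 1 fit (adjusted p = 0.158).

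The remaining calls of this list, named after their values were seen, were Nqo1, a quinone reductase, up from Young to Middle-aged by 0.39 (adjusted p = 0.04998), Gsta1 up from Young to Untreated old by 1.17 (adjusted p = 0.0204) at 0.656 and 1.37 CPM, and Ugt1a6b which fell by 0.30 from Middle-aged to Untreated old (adjusted p = 0.0459). The Ugt1a genes share their last exons and Gsta1 and Gsta2 are close copies, so how their reads were split is uncertain. With D+Q, Aldh3a1 stood at 305 to 397 CPM against 284 to 359 CPM with vehicle, a log2 fold change of 0.11 (SE 0.09, adjusted p = 0.994). Nqo1 differed by 0.22 from Untreated old (SE 0.11, adjusted p = 0.399) and by 0.18 from vehicle (SE 0.14, adjusted p = 0.994).

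**Figure D5:**
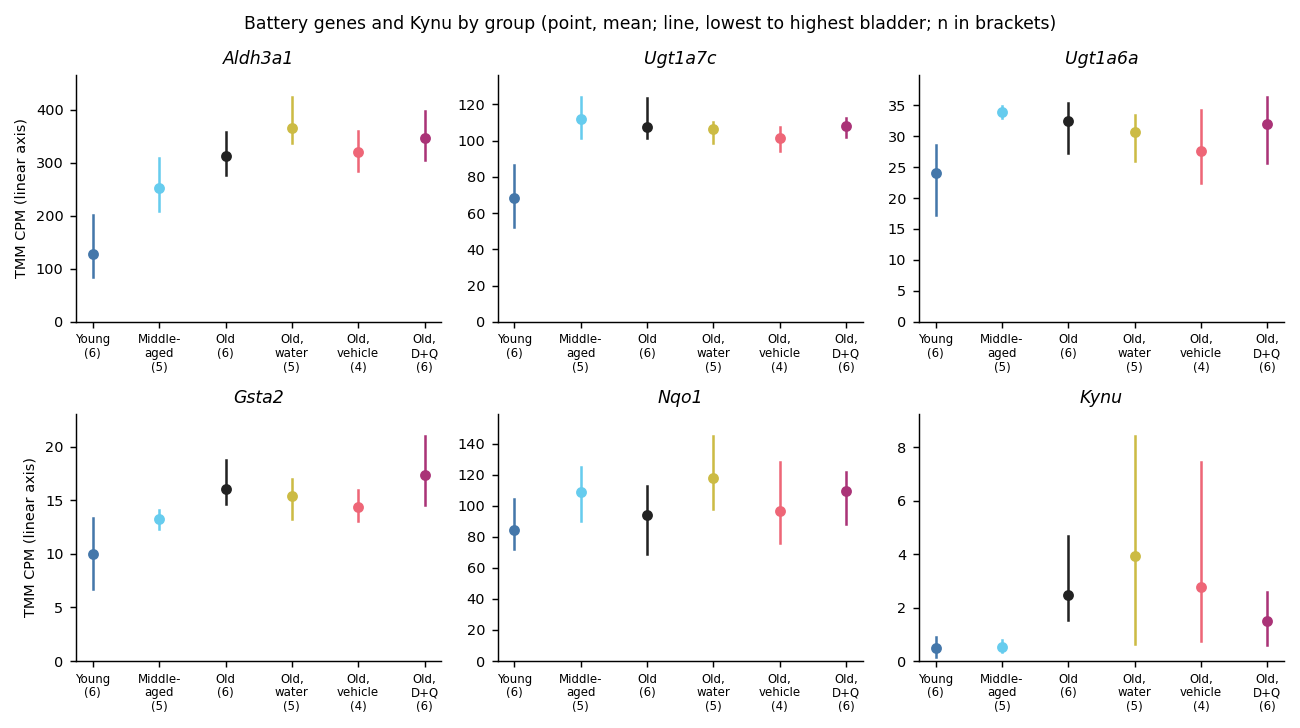
Mean CPM (points) and lowest to highest bladder (lines) by group, on linear axes from 0, for Aldh3a1, Ugt1a7c, Ugt1a6a, Gsta2, Nqo1 and Kynu (n in brackets). Aldh3a1 has means of 128 CPM in Young and 313 CPM in Untreated old bladders without overlap, and the gavaged old groups overlap with the Untreated old one.

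Enzymes of tryptophan metabolism, not all of which make ligands, showed changes in both directions. Of 12 listed genes, 9 or 10 were tested in each age comparison, and 2, 4 and 3 were called from Young to Middle-aged, from Middle-aged to Untreated old and from Young to Untreated old, beside 10.8%, 24.0% and 25.1% of all genes. Kynu, which cleaves kynurenine, was at low levels before old age, at 0.136 to 0.897 CPM in Young and 0.356 to 0.804 CPM in Middle-aged bladders, and reached 1.55 to 4.68 CPM in Untreated old bladders. Its log2 fold change was 2.22 against both (SE 0.37, adjusted p = 0.000747 against Young; SE 0.33, adjusted p = 0.000426 against Middle-aged). Kyat3 and Kyat1, aminotransferases that turn kynurenine into kynurenic acid, rose from Young to Middle-aged by 0.51 (adjusted p = 0.00499) and 0.39 (adjusted p = 0.0154). From Middle-aged to Untreated old, Kmo rose by 0.42 (adjusted p = 0.0288) and Kyat3 fell by 0.29 (adjusted p = 0.04), and Ddc, named after its value was seen, fell by 0.55 (adjusted p = 0.0486). Over the whole span 3 rose, Kynu, Kmo and Kyat1, and 0 fell, with a median log2 fold change of 0.21 over the list. Of these calls, that of Kmo was lost without any one of 8 of 12 bladders (adjusted p up to 0.0993) and that of Kyat1 without any one of 5 (up to 0.0629), so that 1 to 3 genes were called with 1 bladder left out. From Middle-aged to Untreated old the call of Kyat3 was lost without any one of 8 of 11 bladders (adjusted p up to 0.101) and that of Kmo without any one of 3 (up to 0.0767). Kynu stayed low in some gavaged bladders, ranging over 0.619 to 8.40 CPM with water, 0.747 to 7.42 CPM with vehicle and 0.610 to 2.57 CPM with D+Q. T cell markers summed to 35.2 to 80.9 CPM in Untreated old bladders, against 7.43 to 12.9 CPM in Young and 9.99 to 13.2 CPM in Middle-aged ones, and the part of immune cells in the Kynu values was not tested.

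The next list holds chaperones and coactivators of the receptor. Of 14 listed genes, all tested, 0 were called from Young to Middle-aged, 3 rose from Middle-aged to Untreated old and 4 rose from Young to Untreated old, with medians of 0.07, 0.06 and 0.09. Over all genes the shares called were 10.8%, 24.0% and 25.1%, so the counts of the last 2 comparisons lie near the background. Arnt2, a close relative of Arnt, rose by 0.64 from Young (SE 0.16, adjusted p = 0.00989), Hsp90aa1, which holds the receptor in the cytoplasm, by 0.24 from Middle-aged (SE 0.06, adjusted p = 0.0144), and the coactivator Ep300 by 0.14 from Young (SE 0.04, adjusted p = 0.0155). The Ep300 call was lost with all 6 groups in 1 fit and in limma (adjusted p up to 0.177). The others, named after their values were seen, were Relb, by 0.25 from Young and 0.19 from Middle-aged, and Ncoa1 by 0.11 from Young. From Young to Middle-aged, where edgeR, DESeq2 and limma called 0, the smallest adjusted p of the list in edgeR was 0.308.

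Other bHLH-PAS genes, not all of which pair with Arnt, included falls from Young to Untreated old. Npas2 and Arntl, which pair in the circadian clock, fell by 1.02 (SE 0.16, adjusted p = 0.000486) and by 0.91 (SE 0.23, adjusted p = 0.00956) from Young to Untreated old. Npas2 was 10.8 to 21.2 CPM in Young and 6.91 to 10.3 CPM in Untreated old bladders, without overlap. Hif3a fell by 0.59 from Young to Middle-aged (adjusted p = 0.0384, lost without any one of 7 of 11 bladders, up to 0.0939) and rose by 0.71 from Middle-aged to Untreated old (SE 0.14, adjusted p = 0.00332). Hif1a, the oxygen-regulated partner of Arnt, rose by 0.18 in that last step (SE 0.04, adjusted p = 0.00409). This call was lost with all 6 groups in 1 fit and in limma (adjusted p up to 0.197). Estimates for Hif1a were uncalled at -0.19 from Young to Middle-aged and -0.01 from Young to Untreated old, so its rise followed a lower Middle-aged level. Of 10 tested in this list of 12, the counts were 0 up and 1 down, 2 up and 2 down, and 0 up and 3 down in the 3 age comparisons, beside the same shares of all genes. The third fall from Young to Untreated old was that of Npas4, which fell by 0.33 (adjusted p = 0.045), named after its value was seen.

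Of 12 hypoxia genes driven by Arnt with Hif1a, all tested, 1 rose from Young to Middle-aged, 4 rose and 1 fell from Middle-aged to Untreated old, and 3 rose from Young to Untreated old, beside 10.8%, 24.0% and 25.1% of all genes called. The last count is at the background. Slc2a1, a glucose transporter, rose by 0.24 (SE 0.07, adjusted p = 0.0182) and Ankrd37 by 0.85 (SE 0.27, adjusted p = 0.0312) from Young to Untreated old, and P4ha1, a collagen prolyl hydroxylase, rose by 0.25 from Middle-aged (SE 0.07, adjusted p = 0.0217), a call lost without any one of 2 of 11 bladders (up to 0.0686). The 1 gene that rose from Young to Middle-aged was Slc2a1, by 0.23 (adjusted p = 0.0358, lost without any one of 8 of 11 bladders, up to 0.0899). From Young to Untreated old Ankrd37 lost its call without any one of 2 of 12 bladders (adjusted p up to 0.073), and the list's count from Middle-aged to Untreated old ranged from 0 to 5 as single bladders were left out. The others, named after their values were seen, were Pdk1, up by 0.19 from Young to Untreated old, and, from Middle-aged to Untreated old, Ldha and Adm, up by 0.14 and 0.34, and Car9, which fell by 0.40. Ankrd37 also rose from Middle-aged to Untreated old, by 0.50 (adjusted p = 0.0253, and 0.0689 without Middle-aged replicate 5). Adm had uncalled estimates of -0.50 from Young to Middle-aged and -0.17 from Young to Untreated old. The rise of P4ha1 also followed a lower Middle-aged mean (76.4 CPM), with similar means at both ends (Young 90.7 CPM, Untreated old 90.8 CPM). The list medians were 0.04, 0.07 and 0.07.

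In the 6 treatment comparisons 0 of 328 tests of these 5 lists passed in edgeR (51 at an unadjusted p under 0.05) and 0 of 303 in limma, while DESeq2 called 6 of 328. Over all genes, those at an unadjusted p under 0.05 in edgeR ran from 722 of 17267 (D+Q against vehicle) to 2760 of 17250 (water against Untreated old). DESeq2 called 11 of 16552 and 703 of 15219 genes in the same 2 comparisons, its lowest and highest. The smallest adjusted p in edgeR was 0.0571, for Hif1a between Water-treated and Untreated old bladders, where DESeq2 gave 0.00239.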

How the data were processed

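Total RNA of 32 whole bladders was sequenced with a stranded total RNA kit. The authors aligned reads with STAR 2.7.3 to mm10 and counted them per gene with Subread featureCounts (version not printed here), and deposited raw counts with the summed exon length of each gene. How the counting used strand is not given in the sources used here. A second deposited table holds log2 values. They equal the log2 of the counts plus 1, divided by length and scaled to sum to 100000 in each bladder, so 10 times their linear value is TPM. Of all pairs of bladders, 0 had identical counts.

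Groups and replicate numbers follow the sample titles. The labels give no batch, and p-values measure the spread between bladders. Counts of the bladders compared were filtered (filterByExpr), scaled by TMM and fitted by edgeR 4.0.16 (R 4.3.3) with glmQLFit and glmQLFTest in 9 comparisons. P-values were adjusted by Benjamini-Hochberg over all genes tested. Alternatives were DESeq2 1.42.0, limma 3.58.1 on log2(TPM + 1) and log2(TPM + 0.1) for genes with a mean over 1 TPM, edgeR without a filter, edgeR on genes with 10 or more counts throughout, 1 fit of all 6 groups, a block for the replicate number, and leaving out single bladders in turn. The edgeR code was tested on simulated data. Intervals use 95% confidence. Ratios were compared by exact permutation tests (scipy 1.17.1). Correlations used log2(CPM + 1).

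The members and the gene lists were chosen with earlier results of these data known. Named were the 6 members in each comparison and, of each list, up to 4 called genes with the smallest adjusted p, at most 2 a comparison, and genes outside this rule are marked. Promoter windows come from RefSeq, matched by symbol for 5 of 6 members. The genes most like Arnt are not reported here.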

Additional observations from a re-analysis of the deposited data

How the results depend on the processing

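Counts of members called were unchanged in 159 of 166 alternatives, and the other 7 all concern Untreated old against Young. There DESeq2 called 2, the replicate block 1, and leaving out 1 bladder gave 0 to 2 (Young replicates 2 and 3 gave 2, and Young replicate 4 and Untreated old replicates 3 and 6 gave 1). The replicate numbers of the sample titles do not pair the bladders, since the correlation of same-numbered bladders was not over 0.1 in every pair in any of the comparisons of 2 groups (medians from -0.06 to 0.10). For some Middle-aged, Water-treated and Vehicle-treated bladders the number in the title differs from that in the count table, and pairing by the latter was not run. With the block, Tiparp between Untreated old and Young had a log2 fold change of 0.55 (edgeR adjusted p = 0.0277), and Hsp90aa1 between Untreated old and Middle-aged lost its call (adjusted p = 0.0612). No called value of the members existed to reverse. The signs that turned belonged to uncalled estimates, not all of them near 0, and why they turned was not tested. Cyp1a1 from Young to Middle-aged, at 0.36, turned without Middle-aged replicate 4. Tiparp for D+Q against vehicle, at 0.22, turned without D+Q-treated replicate 1.

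Signs that turned with the block were Ahrr 0.010 (Untreated old against Middle-aged), Tiparp 0.012 (D+Q against water), Ahr -0.019 (vehicle against Untreated old), Arnt -0.0085 and Cyp1b1 -0.097 (water against Untreated old), and Cyp1b1 0.081 (D+Q against both gavaged controls). With limma at pseudocounts of 1 and 0.1 they were Arnt -0.0126 and -0.0130 (Untreated old against Middle-aged), Ahr -0.0227 and -0.0233 and Arnt -0.0181 and -0.0185 (D+Q against Untreated old), Ahr 0.0061 and 0.0066 (D+Q against vehicle), Arnt -0.0312 and -0.0320 (D+Q against water), Ahr -0.0287 and -0.0299 (vehicle against Untreated old), and Cyp1b1 -0.0366 and -0.0376 (water against Untreated old). DESeq2 gave Arnt -0.00059 (D+Q against water), the fit of all 6 groups Ahr 0.0023 (D+Q against vehicle), and no filter Ahr -0.00072 (vehicle against Untreated old).

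With 1 bladder left out, signs turned within these ranges. Middle-aged against Young gave Ahr -0.020 to 0.083, Cyp1a1 -0.11 to 0.70 and Cyp1b1 -0.030 to 0.18. Untreated old against Middle-aged gave Ahrr -0.15 to 0.12, and Untreated old against Young Ahr -0.095 to 0.017. D+Q against Untreated old gave Ahr -0.031 to 0.045, Arnt -0.0074 to 0.039, Ahrr -0.24 to 0.050 and Cyp1a1 -0.37 to 0.0015. D+Q against vehicle gave Ahr -0.078 to 0.13, Ahrr -0.038 to 0.32 and Tiparp -0.023 to 0.45, and against water Ahr -0.0022 to 0.10, Arnt -0.015 to 0.029 and Tiparp -0.27 to 0.18. Vehicle against Untreated old gave Ahr -0.12 to 0.088, and water against Untreated old Ahr -0.090 to 0.0083, Arnt -0.012 to 0.022 and Cyp1b1 -0.15 to 0.13. D+Q against both gavaged controls gave Ahr -0.021 to 0.084, Arnt -0.039 to 0.0090, Ahrr -0.26 to 0.048, Cyp1a1 -0.37 to 0.046, Cyp1b1 -0.16 to 0.13 and Tiparp -0.15 to 0.20.

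With 1 bladder left out, calls among the xenobiotic battery numbered 3 to 6 from Young to Middle-aged and 5 to 6 from Young to Untreated old. Those among the tryptophan enzymes then numbered 1 to 5 from Middle-aged to Untreated old. From Young to Untreated old limma called 0 tryptophan enzymes. Kynu, with means of 0.284 TPM in Young and 1.38 TPM in Untreated old bladders, fell below the limma filter and was not tested there. The calls of Kmo and Kyat1 were lost in limma. Counts over all genes moved by over 1.5 times from Young to Middle-aged (1811 called by edgeR, 716 with the block, 2858 with all 6 groups in 1 fit), from Middle-aged to Untreated old (4110, and 2519 with all 6 groups in 1 fit) and for water against Untreated old, where 173 genes were called by edgeR, 703 by DESeq2 and 0 with the block, by limma or with all 6 groups in 1 fit. The fewest counts of a member in any bladder were 110, and the part of depth in the spread between bladders was not tested.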
